A study of Mus musculus with 10 samples.

Results

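The 10 transcription factors described here decide whether a precursor becomes a fat cell and keep the fat cell in that state: *Pparg*, *Rxra*, *Nr1h3*, *Cebpa*, *Cebpb*, *Cebpd*, *Klf15*, *Ebf1*, *Ebf2* and *Zfp423*. They were chosen by gene symbol alone, and every array probe that carries one of these symbols was taken, which gave 10 of 34797 gene names, with 14 of 55681 probes and 23 of 59305 spots per array. RNA came from epididymal white adipose tissue (eWAT), the fat pad beside the epididymis, of 10 male C57BL/6JOlaHsd mice (the strain tag of the labels reads C57BL/6J). The mice were 9 weeks old at the start, ate a low fat diet for 3 weeks and a high fat diet (HFD) for 12 weeks at 29°C, which is thermoneutral for a mouse, and were then given desferrioxamine (DFO), a drug that binds iron, at 100 mg/kg each day for 5 days. They were decapitated after 2 h without food, and the fat pads were frozen at once.

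All 10 mice thus carry the same treatment, and no control arrays were analysed here, so no value below is an effect of DFO. What the arrays can show is how the factors differ between the samples of these mice. With 1 sample per mouse, a difference between mice also holds any difference in dissection, RNA isolation or labelling. These were not told apart. Every array was hybridised with 2 dyes, the RNA of a single mouse in Cy5 and a reference pool in Cy3 that was the same on every array. The labels describe the pool as an equal mix of all samples of the wider study, the control mice and these mice included. A log2 ratio is log2 of Cy5 over Cy3 after normalization, so a difference of 1 between mice is a doubling of this normalized ratio. A constant, the offset, was added to both signals before the log, which makes differences between mice smaller for dim probes. For such probes a difference of 1 can stand for more than a doubling of RNA. Folds below are folds of the normalized ratio. The dyes were not swapped, so the sign of a single log2 ratio also holds any dye bias of the probe, and no ratio was tested against 0. The labels number the samples as replicates 1 to 10, each taken here as 1 mouse, and p-values measure the spread between these samples only. The arrays lay on 5 slides of 2 arrays each.

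A fat cell forms through a relay of transcription factors. C/EBPβ and C/EBPδ come up first in a committed precursor and switch on PPARγ and C/EBPα, which then keep each other on and turn on the genes for storing and releasing fat. PPARγ binds DNA as a pair with RXRα, and LXRα, the product of *Nr1h3*, uses the same partner to sense oxidised cholesterol. EBF1, EBF2 and ZFP423 act early, in the choice of a precursor to become a fat cell, and KLF15 adds to the later programme, including the insulin-regulated glucose transporter gene *Slc2a4*.

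The sequences printed here are the start regions of a few factors and 1 probe of *Zfp423*, whose 3 probes differed in range. The 250 bases before a start site were taken from the RefSeq promoter table of build GRCm38.p6, which held 14 start sites of 8 of the 10 genes; *Cebpd* and *Ebf2* were not matched. Shown, and picked after their values had been seen, are *Pparg* at start site 3 of 3 (chr6:115421816-115422065, plus strand), *Cebpa* (chr7:35119043-35119292, plus), *Klf15* (chr6:90462326-90462575, plus), genes that were low in the same mice after loess normalization, and *Cebpb* (chr2:167688665-167688914, plus), which was not. Capitals mark CCAAT or its reverse complement ATTGG, and TATAAA or TTTATA.
Pparg, start site 3: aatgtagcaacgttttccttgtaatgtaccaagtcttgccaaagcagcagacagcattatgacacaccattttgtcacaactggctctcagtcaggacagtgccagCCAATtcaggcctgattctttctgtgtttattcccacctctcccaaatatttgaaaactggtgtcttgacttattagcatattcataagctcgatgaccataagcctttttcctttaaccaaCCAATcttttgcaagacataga
Cebpa: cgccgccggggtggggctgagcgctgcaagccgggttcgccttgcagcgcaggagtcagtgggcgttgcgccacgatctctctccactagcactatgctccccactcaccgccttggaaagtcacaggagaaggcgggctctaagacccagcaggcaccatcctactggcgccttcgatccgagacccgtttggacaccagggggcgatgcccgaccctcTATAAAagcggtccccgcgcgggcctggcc
Klf15: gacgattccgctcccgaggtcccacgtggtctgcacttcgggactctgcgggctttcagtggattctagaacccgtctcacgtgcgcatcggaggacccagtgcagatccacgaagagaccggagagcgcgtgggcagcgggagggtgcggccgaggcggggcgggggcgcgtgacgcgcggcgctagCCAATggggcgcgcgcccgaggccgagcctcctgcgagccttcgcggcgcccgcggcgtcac
Cebpb: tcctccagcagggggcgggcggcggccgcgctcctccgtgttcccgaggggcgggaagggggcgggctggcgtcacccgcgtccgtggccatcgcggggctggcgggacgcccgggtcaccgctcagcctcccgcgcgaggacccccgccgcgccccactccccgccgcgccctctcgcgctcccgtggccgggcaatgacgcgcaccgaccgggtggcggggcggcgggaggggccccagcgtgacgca
In these windows, CCAAT lies at 2 places before this *Pparg* start and at 1 place before *Klf15*, and TATAAA lies 30 to 25 bases before the *Cebpa* start. Neither is in the *Cebpb* window or that of *Pparg* start site 1, while *Pparg* start site 2 holds 1 CCAAT and 1 TATAAA. Neither is in any window of *Rxra*, *Nr1h3*, *Ebf1* or *Zfp423* either. All probes of *Nr1h3*, *Ebf1* and *Zfp423* were low in the same mice by loess. A link between these motifs and the values was not tested. The GC content is 81.6% for *Cebpb*, 66.4% for *Cebpa* and 72% for *Klf15*, and that of *Pparg* spans these values, with 82.4%, 63.6% and 40.8% at start sites 1, 2 and 3. Over both strands, CCAAT is in 3 and TATAAA in 2 of the 14 windows of the factors. They are in 33.8% and 12.4% of the 32851 windows of this length in the table. The C/EBP motif TTGCGNAA (reverse complement TTNCGCAA) is in none of the 14 windows of the factors and in 0.67% of all windows. The receptor motif AGGTCA (reverse complement TGACCT) is in 4 windows of 3 of the genes, *Pparg*, *Rxra* and *Zfp423*, and in 14% of all windows. A match is a stretch of letters and not a shown binding site.

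On build mm9, which the array's annotation uses, the *Pparg* probe lies on chromosome 6 from 115440213 to 115440272, and *Klf15* on the same chromosome from 90425144 to 90425203. *Cebpa* lies on chromosome 7 from 35906517 to 35906576, *Cebpb* on chromosome 2 from 167515828 to 167515887 and *Cebpd* on chromosome 16 from 15888459 to 15888518. *Ebf1* lies on chromosome 11 from 44818438 to 44818497 and *Ebf2* on chromosome 14 from 68048145 to 68048204. *Rxra* has 2 probes on chromosome 2, from 27615316 to 27615375 and from 27618781 to 27618839, and *Nr1h3* has 2 on the same chromosome, from 91024250 to 91024309 and from 91024345 to 91024404. *Zfp423* has 3 probes on chromosome 8, probe 1 from 90185710 to 90185769, probe 2 from 90185918 to 90185977 and probe 3 from 90210329 to 90210388. Probes of 1 gene are numbered from the brighter to the dimmer.

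The annotation does not say whether a probe lies in coding or untranslated sequence. The probes of *Pparg* and *Ebf1* and *Zfp423* probes 1 and 2 have a stop codon in all 3 forward reading frames, so they cannot lie wholly in a coding region. *Zfp423* probe 3 has none, and it is the only one of the 14 that holds, in an open frame, cysteine codons spaced as in a zinc finger. Since 9 other probes also have an open frame, the letters alone do not settle whether it is coding. These codons and the pair between them are in capitals.
Zfp423 probe 3: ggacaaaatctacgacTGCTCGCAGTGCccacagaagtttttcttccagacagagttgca

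All 14 probes were well above background in the Cy3 pool on 10 of 10 arrays, and 13 were so in Cy5, the exception being *Rxra* probe 2, on 9. No spot was saturated. The mean Cy5 signal of *Pparg* ran from 4115 to 16835 over the arrays, while that of the dimmest, *Rxra* probe 2, ran from 58.6 to 146, where the median background was 32 to 37. Over all probes, the median signal per array was 54.8 to 81.3 in Cy5 and 64.8 to 84.1 in Cy3. The array of mouse 3 stood apart in its dye balance: with each array only centred on its median, the median log2 ratio of the 7428 brightest probes (mean log2 signal over 10) was -0.26 in mouse 3, against 0.47 to 0.88 elsewhere. Loess, used below, brings it to between -0.03 and 0.00 on every array. Results that depend on this are given both ways.

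The epididymal pad was checked with markers of fat cells and of other cells. All 8 adipocyte markers were expressed, and 8 of 8 macrophage, 6 of 6 endothelium and 6 of 6 mesothelium markers were too. Of 8 sperm and epididymis markers, 3 were expressed, and *Tnp2*, *Lcn8*, *Lcn9*, *Crisp1* and *Defb1* were not.

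Every one of the 10 factors varied more between the samples of the mice than the pool varied between arrays. The Pitman-Morgan test, which compares the variances of log2 Cy5 and log2 Cy3 over the same 10 arrays, called 14 of 14 probes after Benjamini-Hochberg adjustment over 25049 probes, with adjusted p between 4.67e-07 and 0.0424. The background is high: 59.8% of all tested probes were called this way, and 0.164% the other way. The median SD of the 14 log2 ratios was 0.47, against 0.18 for all tested probes. The SD of the factors in the pool channel was 0.039 to 0.090 over the 10 arrays. It was taken after normalization within and between arrays, so it is not the plain repeat error of 1 RNA. In the same channel the median over all tested probes was 0.081, but the SD was 0.56 for *Fabp4* and 0.32 for *Cfd*, 2 of the adipocyte markers below. Without normalization between arrays the test called 6 of 14 probes (18.7% of all), those of *Klf15*, *Ebf1* and *Zfp423* and *Rxra* probe 2, and without mice 4, 5, 6 and 7 it called 7 of 14 (14.2% of all), those of *Pparg*, *Cebpa*, *Cebpd*, *Klf15*, *Ebf1* and *Ebf2* and *Zfp423* probe 2.

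**Figure D1:**
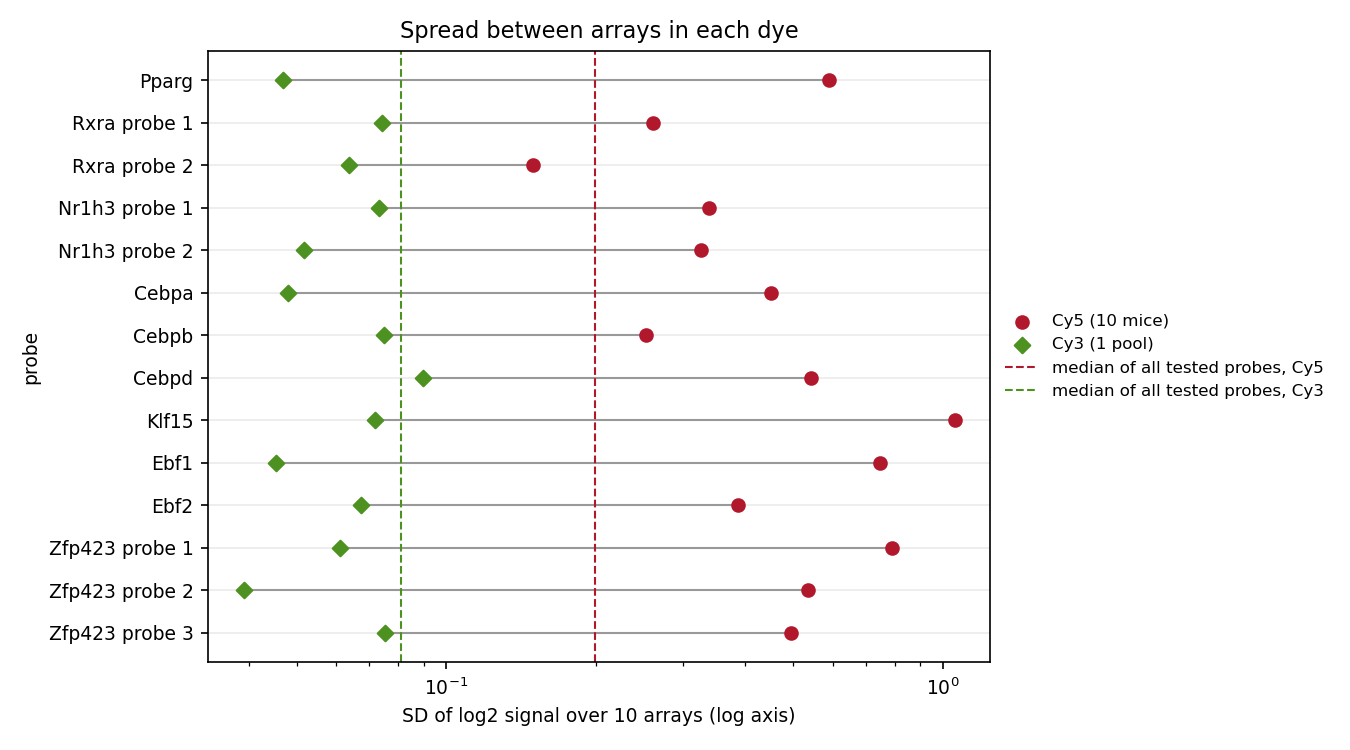
SD of the log2 signal over the 10 arrays (x axis, log scale) for each of the 14 probes, in Cy5 (red circles, 10 mice) and in Cy3 (green diamonds, the same pool 10 times); dashed lines are the medians over 25049 tested probes, 0.20 in Cy5 and 0.081 in Cy3. For every probe the red circle lies right of the green diamond; the Cy5 SD is highest for *Klf15*, at 1.06, and lowest for *Rxra* probe 2, at 0.15.

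By loess, the order of the factors by spread between mice was *Klf15* (SD 1.03), *Zfp423* probe 1 (0.81), *Ebf1* (0.74), *Pparg* (0.60), *Cebpd* (0.57), *Cebpa* (0.45), *Ebf2* and *Nr1h3* (both 0.37), *Rxra* probe 1 (0.26) and *Cebpb* (0.22), with 1 probe per gene. The differences between neighbours in this order were not tested, and its lower end depends on the processing: with median centring the SD of *Cebpb* was 0.42 and that of *Rxra* probe 1 0.31, and with the scanner's log ratio they were 0.26 and 0.51. The scanner software's own error of a log2 ratio was 0.20 to 0.30 for these probes. By loess 13 of the 14 SDs exceeded it, all but that of *Rxra* probe 2 (0.15 against 0.30). *Rxra* probe 1 (0.26 against 0.25) and *Cebpb* (0.22 against 0.20) did so by little. The error belongs to the scanner's ratio, made without the offset, so the scales differ. On the scanner's ratio the SD of *Rxra* probe 2 exceeded its error too. The array prints *Pparg* 10 times, which gives a direct measure of spot error: on the scanner's log2 scale, its SD over the spots of an array was 0.017 to 0.066, and its SD between mice was 0.58.

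**Figure D2:**
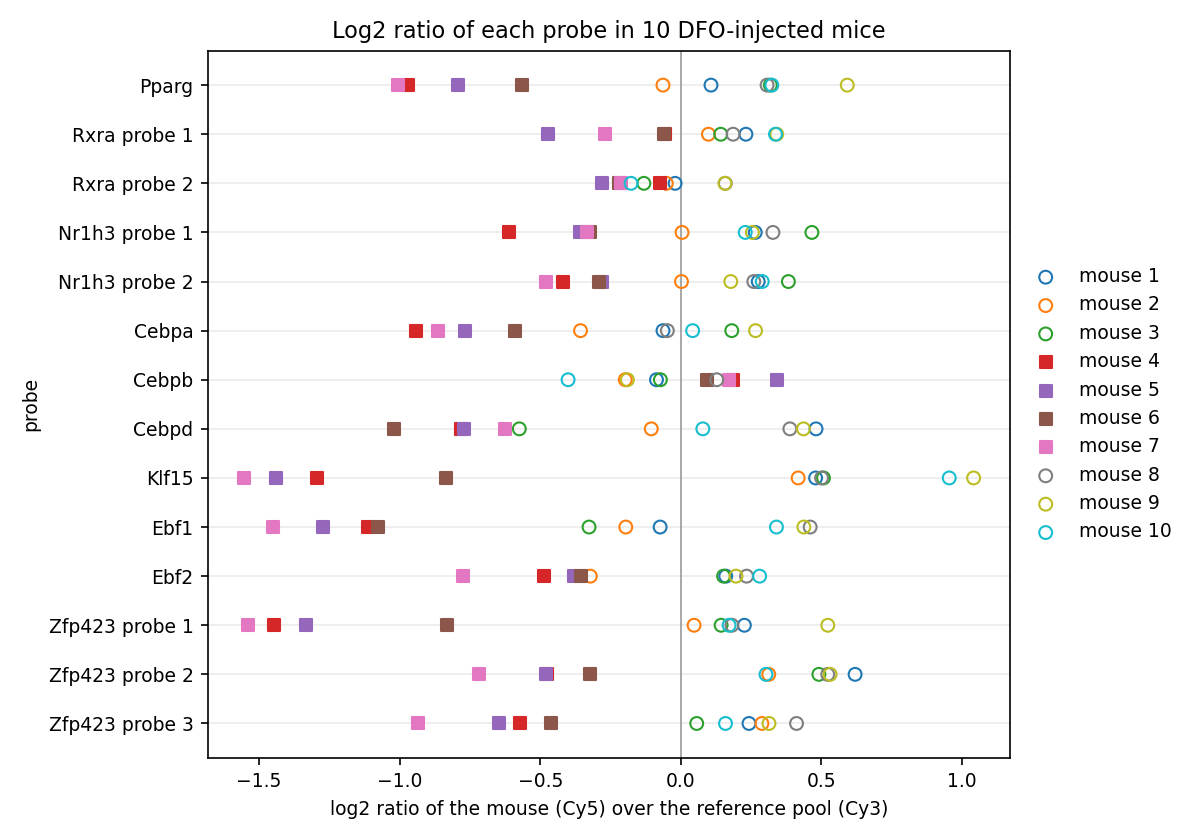
Log2 ratio of the mouse over the reference pool (x axis) for each of the 14 probes (rows) in each of the 10 mice; filled squares are mice 4, 5, 6 and 7, which are no group of the study, and open circles are the other mice. By loess the squares are the 4 leftmost marks in 12 rows, all but *Rxra* probe 2 and *Cebpb*; this holds in 3 rows with median centring and in 8 with the deposited values.

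Most of the factors were low in the same mice. In mice 4, 5, 6 and 7 the median log2 ratio of the 14 probes was -0.59, -0.56, -0.41 and -0.75, and in the other mice it was between -0.02 and 0.33. For 12 of the 14 probes these mice held the 4 lowest ratios, against 23.2% of all tested probes, but the count was 11 (21.5% of all) with the ratio of the scanner software, 8 (15.6%) with the deposited values and 3 (7.04%) with median centring. With mouse 3 left out, it was 12 (25.7%) by loess, 11 (23.2%) with the scanner's ratio, 9 (17.5%) with the deposited values and 11 (19.3%) with median centring. No probe of the factors had its 4 highest ratios in these mice under any normalization tried, against 19.2% of all probes by loess. The labels do not set these mice apart, so they are not averaged or tested as a group here. They were picked after the data had been seen, so these counts describe an order and do not test it.

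*Pparg*, the receptor at the centre of the fat cell programme, had log2 ratios of 0.11, -0.06, 0.32, -0.97, -0.79, -0.56, -1.01, 0.31, 0.59 and 0.32 in mice 1 to 10. Mouse 9 was 3.03-fold above mouse 7, and mice 4 to 7 lay below all the others, except with median centring, where mouse 3 was among the 4 lowest. The mean was -0.17 ± 0.60 (SD, n = 10), and the SD was 0.59 in Cy5 and 0.047 in Cy3 (adjusted p = 1.98e-06, Pitman-Morgan test with Benjamini-Hochberg adjustment).

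*Rxra*, the shared partner of PPARγ and LXRα, had the smallest SDs of the nuclear receptors by loess, but not with the scanner's log ratio, where they were 0.51 and 0.41 on its probes against 0.32 and 0.30 on those of *Nr1h3*. Probe 1 ran from -0.47 in mouse 5 over a median of 0.12 to 0.34 in mouse 9 (mean 0.05 ± 0.26, adjusted p = 0.00446). Its 4 lowest mice were 4 to 7, though not with median centring or the deposited values. Probe 2 ran from -0.28 in mouse 5 over -0.10 to 0.16 in mouse 8 (mean -0.09 ± 0.15, adjusted p = 0.0424), and mouse 10 was among its 4 lowest. The probes differed most in mouse 10, by 0.38 after each was centred on its mean. Both are dim. Probe 2 was no longer called without 7 of the mice taken singly (1, 2, 3, 5, 6, 7 or 8).

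*Nr1h3*, which encodes the oxysterol receptor LXRα, was read by 2 probes with nearly the same outcome. Probe 1 ran from -0.61 in mouse 4 over a median of 0.12 to 0.47 in mouse 3 (mean -0.01 ± 0.37, adjusted p = 0.000627). Probe 2 ran from -0.48 in mouse 7 to 0.38 in mouse 3 (mean -0.01 ± 0.33, adjusted p = 0.000129). The root mean square difference between the probes over the mice, after centring, was 0.093. On both, mice 4 to 7 were the lowest, except with median centring, where mouse 3 was among the 4 lowest and neither probe was called.

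The 3 C/EBP genes did not follow a common order. *Cebpa*, the late factor that works beside PPARγ, ran from -0.94 in mouse 4 over a median of -0.21 to 0.27 in mouse 9 (mean -0.31 ± 0.45, adjusted p = 1.15e-05). Mice 4 to 7 were its lowest, though mouse 2 lay near them at -0.36, and they were not the 4 lowest with median centring or the deposited values. After centring on the mean, the profile of *Cebpa* lay close to those of *Nr1h3* (root mean square difference 0.14), *Pparg* (0.17) and *Ebf2* (0.17), the closest of all pairs of factors.

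*Cebpd*, an early factor that also responds to glucocorticoids and inflammation, ran from -1.02 in mouse 6 over a median of -0.34 to 0.48 in mouse 1 (mean -0.25 ± 0.57, adjusted p = 0.000139). Mouse 3, at -0.57, lay 0.05 above mouse 7, the highest of mice 4 to 7, and with median centring or the deposited values these were not the 4 lowest. The slide had its lowest unadjusted p among the factors here, 0.034 (limma moderated F test, adjusted p = 0.697).

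*Cebpb*, the other early factor, was not low in mice 4 to 7. Its log2 ratios in mice 1 to 10 were -0.09, -0.20, -0.07, 0.19, 0.34, 0.09, 0.17, 0.13, -0.19 and -0.40. Mice 5, 4 and 7 were the highest, followed by mouse 8 and then mouse 6, and mouse 10 was the lowest. The spread was small but past the threshold (mean -0.00 ± 0.22, adjusted p = 0.003), and it was not called with median centring or with the slide as a block. Its unadjusted p for the slide was 0.0431.

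*Klf15*, a Krüppel-like factor induced by glucocorticoids, had the widest range of the 10 genes. Its log2 ratios in mice 1 to 10 were 0.48, 0.42, 0.51, -1.29, -1.44, -0.83, -1.55, 0.50, 1.04 and 0.95. The loess ratio of mouse 9, made with the offset, was 6.03-fold above that of mouse 7. No other mouse fell in the gap between -0.83 in mouse 6 and 0.42 in mouse 2. On the scanner's ratio, made without the offset, mouse 7 was at -1.87 and mouse 9 at 1.22. Mice 4 to 7 were the 4 lowest under every normalization tried. The mean was -0.12 ± 1.03 (SD, n = 10), with an SD of 1.06 in Cy5 against 0.072 in Cy3 (adjusted p = 6.63e-07).

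*Ebf1*, an early B cell factor that also acts in fat cells, came next after *Zfp423* probe 1 in spread, and above *Zfp423* probes 2 and 3. It ran from -1.45 in mouse 7 over a median of -0.26 to 0.46 in mouse 8 (mean -0.43 ± 0.74, adjusted p = 5.05e-07). The 4 lowest were mice 4 to 7, at -1.08 or less, and the next was mouse 3 at -0.33; with median centring mouse 3 was among the 4 lowest. *Ebf2*, its relative that marks precursors of thermogenic fat cells, varied by less, from -0.77 in mouse 7 over -0.08 to 0.28 in mouse 10 (mean -0.13 ± 0.37, adjusted p = 0.000184). Mouse 2 at -0.32 lay next to mouse 6 at -0.36, and mice 4 to 7 were its 4 lowest by loess but not with median centring, the scanner's ratio or the deposited values.

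*Zfp423*, a zinc finger factor of committed precursors that holds white fat cells back from a brown-like state, was read by 3 probes. Probe 1 ran from -1.54 in mouse 7 over a median of 0.10 to 0.52 in mouse 9 (mean -0.39 ± 0.81, adjusted p = 1.63e-06). Probe 2 ran from -0.72 over 0.31 to 0.62 (mean 0.08 ± 0.51, adjusted p = 4.67e-07). Probe 3, the one with the cysteine codons, ran from -0.93 over 0.11 to 0.41 (mean -0.11 ± 0.49, adjusted p = 9.11e-05). Mice 4 to 7 were the lowest on each probe, but on probe 3 mouse 3 was among the 4 lowest with median centring. By loess the probes shared the 4 lowest mice, with mouse 7 the lowest, but not the order of the others. The highest was mouse 9 on probe 1, mouse 1 on probe 2 and mouse 8 on probe 3. The size of the spread differed too. By loess the range between the highest and the lowest mouse was 2.06 on probe 1, against 1.34 on probe 2 and 1.35 on probe 3. The scanner's ratio, made without the offset, ran from -1.66 to 0.55 on probe 1. It ran from -0.83 to 0.73 on probe 2 and from -1.27 to 0.50 on probe 3. After centring of the loess ratios, probes 2 and 3 differed by a root mean square of 0.12, and probe 1 differed from them by 0.31 and 0.34, most in mouse 4.

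**Figure D3:**
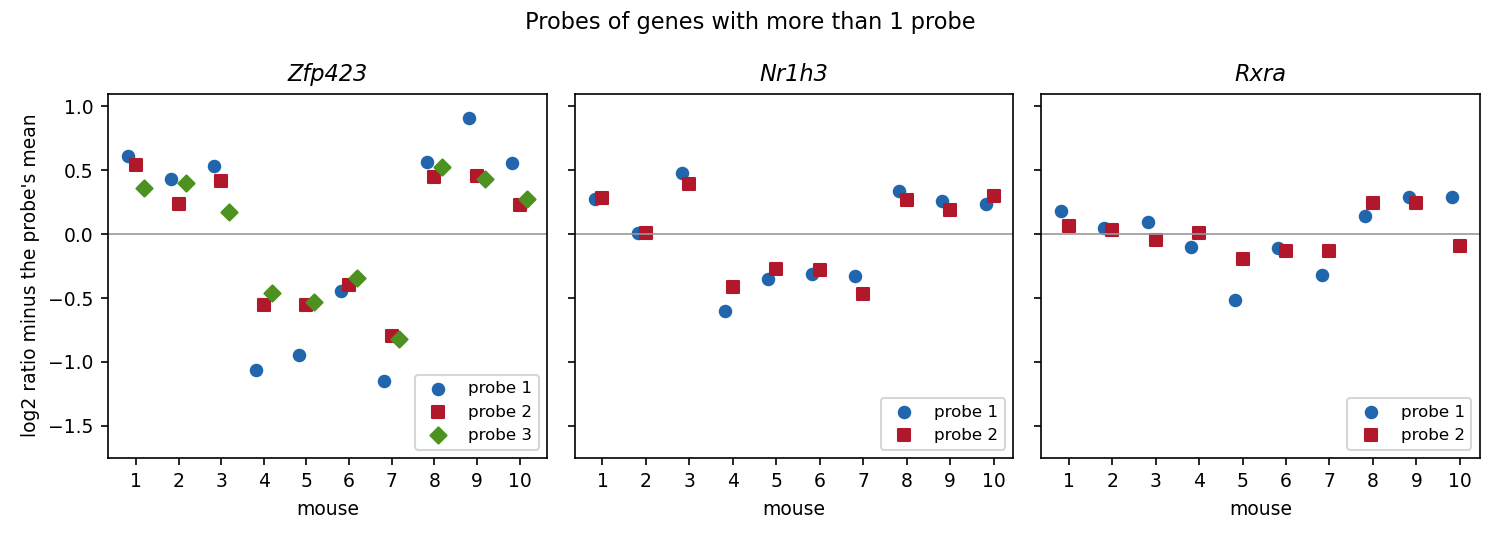
Log2 ratio minus the probe's mean over the 10 mice (y axis) for each mouse (x axis) and each probe of *Zfp423*, *Nr1h3* and *Rxra*. The probes of *Nr1h3* lie within 0.19 of each other in every mouse, while *Zfp423* probe 1 lies up to 0.60 from probe 3, in mouse 4.

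No effect of the slide passed its test. None of 27718 probes, here filtered on Cy5 alone, passed the adjusted threshold for the slide (limma moderated F test, with 1137 at an unadjusted p under 0.05). Among the factors the lowest adjusted p was 0.697. With the slide as a block, the variance test called 11 of the 14 probes (41.2% of all), not those of *Rxra* and *Cebpb*. On the slide that held mice 3 and 4, mouse 4 was the lower for 12 of the 14 probes (52.8% of all tested probes), and on the slide of mice 7 and 8, mouse 8 was the higher for 13 (52.4% of all). The first count was 11 with the deposited values and 8 with median centring, and the second was 13 under each. The difference was largest for *Klf15*, at -1.80 for mouse 4 minus 3 and 2.05 for mouse 8 minus 7. On the other 3 slides the differences between the mice of a slide were at most 0.61 for any of the 14 probes. Their directions were one-sided too. Mouse 2 was below mouse 1 for 13 probes (47.5% of all), and mouse 6 was above mouse 5 for 11 (55.6%). Mouse 10 was below mouse 9 for 12 (48%). With median centring these counts were 7, 14 and 12.

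**Figure D4:**
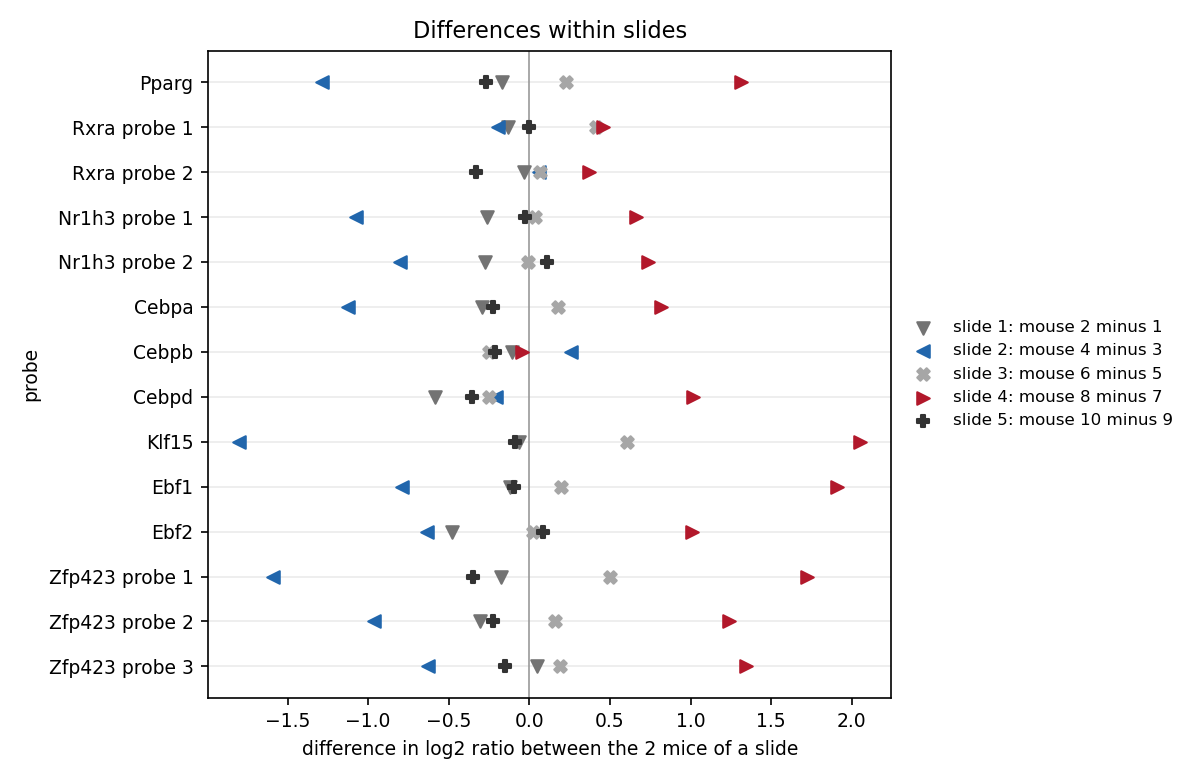
Difference in log2 ratio between the mice that shared a slide (x axis) for each of the 14 probes (rows), 1 mark per slide. By loess the blue marks (mouse 4 minus 3) lie left of 0 in 12 rows, 8 with median centring, and the red marks (mouse 8 minus 7) lie right of 0 in 13 rows, while the grey and black marks of the other slides lie within 0.61 of 0.

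The targets of the factors were followed in lists of genes. Of 18 targets of PPARγ and C/EBPα, all were expressed, and 15 of the 17 that could be tested varied more in Cy5 (62.3% of all genes with 1 probe each were called). Their median SD between mice was 1.11, above that of any factor. *Cfd*, the serine protease adipsin, ranged most, from -4.69 in mouse 7 to 1.44 in mouse 10. *Pck1*, which feeds glycerol synthesis, ran from -3.56 to 1.22, and *Retn*, the hormone resistin, from -3.20 to 0.92 with no value in mouse 9, where the spot was marked as an outlier. *Lpl*, the enzyme that frees fatty acids from lipoproteins, had the smallest SD, 0.18, and was not called (adjusted p = 0.755).

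For 16 of the 17 targets with a value in every mouse, mice 4 to 7 were the 4 lowest (24.6% of all genes), while the count was 8 with median centring and 14 of 18 with the deposited values. *Cd36*, a fatty acid carrier that macrophages make too, had its 4 highest values in these mice (19.5% of all genes). *Fabp4*, the fatty acid binding protein, was not called although its SD was 1.13, since after normalization between arrays its SD was as large in Cy3 (0.56) as in Cy5 (0.58).

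All 8 targets of LXRα were called, against 62.3% of all genes. *Scd1*, the desaturase, ran from -2.92 in mouse 7 to 0.87 in mouse 9, and *Fasn*, the fatty acid synthase, from -1.26 to 0.70. *Abcg1*, a cholesterol exporter that is abundant in macrophages, went opposite to them, with 0.51, 0.60, 0.24 and 0.62 in mice 4 to 7 and -0.47 or less in the others. The smallest SD was that of *Lpcat3* (0.12). Mice 4 to 7 were the 4 lowest for 5 of the 8 genes by loess (24.6% of all genes) and for 2 with median centring or the deposited values.

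The 14 receptor partners and cofactors had a median SD of 0.16, and 6 were called (62.3% of all genes). *Tle3*, a cofactor of PPARγ in fat cells, ran from -0.89 in mouse 7 to 0.45 in mouse 10. *Ppargc1a*, the coactivator of mitochondrial genes, was highest in mouse 2 at 0.84, and *Prdm16*, a cofactor of brown fat identity, ran from -0.78 to 0.45. *Rxrb*, the sister of *Rxra*, spread least (SD 0.06, adjusted p = 0.563). Mice 4 to 7 were the 4 lowest for 4 of the 14 by loess (24.6% of all genes), 1 with median centring, 6 with the scanner's ratio and 3 with the deposited values.

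Of 12 other factors that promote fat cell formation, 11 were expressed (*Klf5* was not) and 10 were called (62.3% of all genes). *Egr2* was the widest and ran opposite to *Klf15*, with 1.01, 1.31, 1.02 and 1.22 in mice 4 to 7 and -0.39 or less in the others. *Ebf3*, a relative of *Ebf1*, ran from -1.24 in mouse 4 to 0.40 in mouse 9, and *Zfp467* from -0.44 to 0.51. *Stat5b* spread least (SD 0.11, adjusted p = 0.153). Of 11 factors that hold fat cell formation back, 10 were expressed (*Wnt10b* was not) and 8 were called, against the same 62.3%. *Foxo1* was the widest, from -1.21 in mouse 7 to 0.63 in mouse 9, *Dlk1*, a marker of precursors, was highest in mouse 2 at 0.91, and *Gata2* ran from -0.67 to 0.47. *Sirt1* spread least (SD 0.13). The genes of a list did not share 1 order: mice 4 to 7 were the 4 lowest for 5 and 4 genes (24.6% of all genes) and the 4 highest for 3 and 1 (19.5% of all genes), and with median centring they were the 4 lowest for 0 and 1. The mean of the factors that hold back was -0.37, -0.37, -0.36 and -0.41 in mice 4 to 7 and -0.09 to 0.12 in the others. These mice had its 4 lowest means except with median centring. The mean of the promoting factors did not have this order under any normalization tried.

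In mice 4 to 7 the adipocyte markers moved with most of the factors and the macrophage markers against them. These values stand beside every result on mice 4 to 7. Since these mice were picked after the data had been seen, the counts below do not test their order either. The mean log2 ratio of the 8 adipocyte markers, all of which are also among the 18 targets, was -2.36, -2.09, -1.49 and -2.62 in mice 4, 5, 6 and 7 and -0.16 to 0.68 in the others. The mean of the 8 macrophage markers was 0.77, 0.80, 0.64 and 0.89 in those mice and -0.90 to -0.05 in the others. Mice 4 to 7 were the 4 lowest for 8 of 8 adipocyte markers (24.6% of all genes; 6 with median centring) and the 4 highest for 8 of 8 macrophage markers under every normalization tried (19.5% of all genes by loess). Among the macrophage markers *Adgre1* spread most, from -1.52 in mouse 9 to 1.56 in mouse 7, followed by *Itgax* and *Cd68*, and *Itgam* least (SD 0.14). In a whole fat pad, fewer fat cells and less RNA per fat cell cannot be told apart. The part of cell content in the spread of the factors was not tested.

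**Figure D5:**
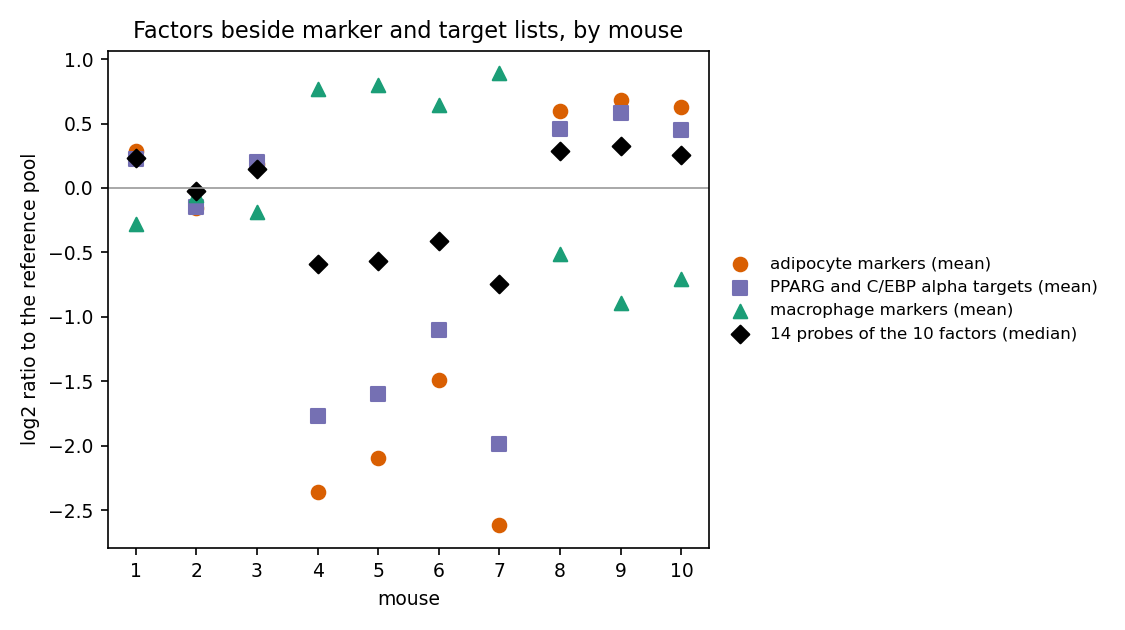
Log2 ratio to the reference pool (y axis) in each mouse (x axis): median of the 14 probes of the 10 factors (black diamonds), and means of the adipocyte markers (orange circles), the targets of PPARγ and C/EBPα (purple squares) and the macrophage markers (green triangles). In mice 4 to 7 the black diamonds lie between -0.75 and -0.41, below the other mice by loess, while with median centring mouse 3 (-0.07) lies among them (-0.24 to 0.13); the orange circles of these mice lie between -2.62 and -1.49.

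The variance test called 7 of 8 adipocyte, 7 of 8 macrophage, 5 of 6 endothelium, 5 of 5 lymphocyte and 6 of 6 mesothelium markers, and 3 of 3 sperm and 3 of 3 blood markers, where 62.3% of all genes were called. Of the 8 precursor markers, 7 were called, and mice 4 to 7 were the 4 lowest for 3 of them (2 with median centring), where 24.6% of all genes had this order. *Cd24a* was the widest, from -1.60 in mouse 4 to 1.57 in mouse 2, then *Dpp4* (-0.99 to 0.45) and *Cd34* (-0.93 to 0.29), which endothelium also makes, while *Pdgfrb* spread least (SD 0.11). For 5 of 6 endothelium markers mice 4 to 7 were the 4 lowest, though for none with median centring; *Cdh5* ran from -1.38 to 0.55, *Tie1* from -1.22 to 0.36 and *Vwf* from -0.89 to 0.69, and *Kdr* spread least (SD 0.23). The 5 expressed lymphocyte markers had mice 4 to 7 as the lowest for 2 genes, 1 with median centring; *Ms4a1*, *Cd3g* and *Cd79b* had SDs of 0.44, 0.43 and 0.42, and *Cd3e* 0.26. Mesothelium markers did for 3 of 6 and none with median centring. *Krt8* ran from -2.25 to 1.91, *Msln* from -2.10 to 0.68 and *Krt19* from -1.89 to 0.65, and *Wt1* spread least (SD 0.45). *Krt8* and *Krt19* were highest in mouse 2, where the other mesothelium markers were low. In that mouse *Msln* was at -0.96, *Upk3b* and *Lrrn4* were both at -0.98 and *Wt1* was at -0.49. The 3 expressed blood markers, *Hba-a1*, *Hbb-b1* and *Alas2* (*Slc4a1* was not expressed), had means of -2.06 to -1.34 in mice 4 to 7, -0.94 in mouse 3 and -0.13 to 0.51 in the others. Among sperm genes, *Prm1*, *Prm2* and *Tnp1* were highest in mouse 2 by their mean, -1.02 against -2.10 or less. The part of these cells in the results was not tested either.

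The genes whose profile over the 10 mice was most like that of the widest factors were looked up among 16769 genes well above background on all arrays, by the root mean square difference of centred log2 ratios. For *Klf15* these were *Timp3* (0.092), *Snhg11* (0.12) and *Cib2* (0.13). For *Zfp423* probe 1 they were *Rgnef* (0.096), TC1710501 (0.10) and *Prnp* (0.10), and for *Ebf1* they were *Robo4* (0.069), *Akap12* (0.10) and *Eci1* (0.12).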

How the data were processed

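RNA of eWAT from 10 DFO-injected mice was hybridised on Agilent 8x60K arrays against a common Cy3 pool. Per the labels, spots were read with Agilent Feature Extraction 10.7.3.1. In the deposited scanner files, intensity is the brightness of a spot and of its surroundings in each dye, taken as a mean and as a median, with no normalization. The log10 ratio in the deposited files was made by the same software, which had subtracted background and balanced the dyes in its own way. A further table that the authors deposited gives log2 values of 30733 spots after their normalization, the scale being judged from the values, with a median of 8.52 in each column and an r of 0.993 to 0.999 over spots with log2 Cy5. Its normalization is credited to an earlier publication, so its centring and its use of the Cy3 channel stay unknown, and it served only for differences between mice.

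Here the mean signal was corrected with normexp on the median background (offset 50), normalized by loess within arrays and, for channel values, by Aquantile between arrays (limma 3.58.1, R 4.3.3). Control spots had weight 0 in loess and were then dropped, outlier spots were removed and spots of a probe averaged. A probe was expressed when well above background in both dyes on at least 5 of 10 arrays: 25137 of 55681 were, and 25049 with no missing value were tested for variance. The slide test asked this of Cy5 alone, which gave 27718 probes with no missing value. Variances were compared with the Pitman-Morgan test and slides with limma's moderated F test, both adjusted by Benjamini-Hochberg (threshold 0.05); both were tested on simulated data (Python 3.11.15, scipy 1.17.1). A gene in a list is its brightest expressed probe. Named are all factors, of each list the 3 genes with the largest and the 1 with the smallest SD and those not expressed (1 of these is not reported here), and for the 3 widest factors the 3 most similar genes. *Cd36*, *Fabp4*, *Upk3b* and *Lrrn4* were added after their values had been seen. The factors and lists were chosen with earlier results of these data known. The number of arrays and the margin over background limit the precision. Alternatives were no background subtraction, median centring, no normalization between arrays, an F test, the slide as a block, other filters, the scanner's log ratio, the deposited values and leaving out mice.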

Additional observations from a re-analysis of the deposited data

How the results depend on the processing

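Of 526 values recomputed under alternatives, 493 stayed within the limits set for a change (1.5 times for a count, 1 SD for a mean or an SD), 25 counts were lower and 8 means or SDs moved. Without normalization between arrays, the variance test called 6 of the 14 probes and 4675 of all, and in the lists 4 LXRα targets, 2 partners and cofactors, 3 other promoting factors, 3 factors that hold back, 2 precursor, 3 endothelium, 2 lymphocyte and 1 sperm and epididymis markers. With median centring it called 10 of the 14 probes and 10117 of all (40.4%), 5 LXRα targets and 4 other promoting factors, and the filter on all 10 arrays left 1 sperm and epididymis marker. Without mice 4, 5, 6 and 7 together, a choice made after seeing the data, it called 7 of the 14 probes and 3558 of all, with 9 targets of PPARγ and C/EBPα, 4 LXRα targets, 3 partners and cofactors, 4 other promoting factors, 2 factors that hold back, 4 precursor, 4 macrophage, 0 endothelium and 3 lymphocyte markers. So few mice also lower what the test can call. Median centring shifts the median of all tested probes to 0.37, and with it the mean log2 ratio of *Pparg* to 0.44, of *Nr1h3* to 0.60 and 0.57, of *Cebpa* to 0.26, of *Cebpb* to 0.59, of *Cebpd* to 0.34 and of *Ebf2* to 0.34. With that shift the mean turned from below to above 0 for all probes but *Rxra* probe 1 and *Zfp423* probe 2, which were above 0 in both. Means near 0 also changed sign elsewhere: *Rxra* probe 1 and both *Nr1h3* probes with the scanner's ratio, and *Nr1h3*, *Cebpb* and *Klf15* without some single mice. No mean was tested against 0. The SD of *Rxra* probe 2 was 0.41 with the scanner's log ratio. The cause was not tested. Leaving out 1 mouse at a time gave 13 to 14 of the 14 probes and 13516 to 14415 of all, and 1 to 3 sperm and epididymis markers, the lowest without mouse 2. The slide test called 0 probes under every setting run, with 857 to 2713 at an unadjusted p under 0.05. The order of mice under other normalizations was also looked at only after seeing the data. No paired analysis was possible because all 10 mice belong to 1 group.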
